A study of Homo sapiens with 8 samples.

Results

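The genes described here build heparan sulfate and hyaluronan in HTETOP cells. These human cells descend from the fibrosarcoma line HT1080, and tetracycline or doxycycline silences their topoisomerase II alpha (TOP2A). There are 10 of them, given as a list of symbols: the polymerase genes EXT1 and EXT2, their relatives EXTL2 and EXTL3, the sulfotransferase gene NDST1, the glypican genes GPC1, GPC4 and GPC6, and the hyaluronan synthase genes HAS2 and HAS3. Every probe set whose annotation names one of them was taken, which gave 22 of the 54675 probe sets on the array. Of these, 21 name 1 gene alone, and 1 (228179_at) names HAS3 together with UTP4 and is not counted for either. The genes were chosen by symbol with the dexrazoxane and doxycycline differences of these arrays already known, including the lower values of HAS2. The values below therefore describe the genes, and their adjusted p-values are no independent support.

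Dexrazoxane, a drug of the bisdioxopiperazine class that inhibits topoisomerase II catalytically, was given at 100 µM for 24 h (3 arrays), and the cells of its own vehicle group were treated for the same time (3 arrays). Doxycycline, which shuts off the TOP2A transgene of this line, was given at 1 µg/ml for 24 h (1 array), again with a vehicle group of its own (1 array). All groups are the same engineered line, each array carried RNA pooled from 3 passages, and the labels do not tell whether arrays of different number are separate cultures. The spread behind each p-value may therefore be technical. TOP2A read 6.02 on the doxycycline array and 11.98 on its vehicle array (log2), and its mean was 10.88 ± 0.34 with dexrazoxane and 12.45 ± 0.09 with vehicle (SD, n = 3 each).

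Values are log2 expression values per probe set. Those of the doxycycline pair have medians of 4.81 and 4.82, and those of the other 6 arrays 5.49 to 5.57, so each treatment is set only against its own vehicle. Of 12 mesenchymal markers 10 were above the filter on low values (a mean of 4.83), with VIM at 13.67 and FN1 at 11.99 on average over the 8 arrays. Of 7 epithelial markers 4 were above it, as were 3 of 7 leukocyte and 3 of 6 endothelial markers, among them PECAM1 at 6.31. The mesenchymal COL3A1 and LUM, the epithelial EPCAM (3.01), CDH1 (3.68) and KRT19, and the leukocyte gene PTPRC (3.48) were among those below the filter. Averages of the epithelial markers over the 8 arrays ran up to 11.19. The mean over the epithelial markers was 6.49 to 6.63 on dexrazoxane arrays and 6.36 to 6.43 on vehicle arrays. Of the 4 above the filter 1 was called higher, KRT8, and its groups overlapped. Its limma adjusted p was 0.0334 with the replicate number as a block and 0.9999 without. With that block 2.42% of all genes were called higher. Whether this marker difference has a part in the results was not tested. A bulk array cannot tell fewer cells with a transcript from less of it per cell.

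Heparan sulfate is a long sugar chain attached to core proteins at the cell surface and in the matrix. A complex of EXT1 and EXT2 polymerises it, EXTL3 starts it, NDST1 begins its sulfation, and glypicans are core proteins anchored in the membrane by a lipid. Bound growth factors and morphogens such as FGF, WNT and hedgehog proteins reach their receptors with its help. Hyaluronan carries no core protein and no sulfate; HAS enzymes extrude it through the plasma membrane, and in fibroblasts and many sarcomas it forms a coat around the cell.

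Promoter sequences from RefSeq (GRCh38.p14) were found for 7 of the 10 genes. The dexrazoxane differences of GPC6 and GPC1 had opposite signs, although the GPC1 groups overlapped, so the sequences of these glypicans are printed. Each is the 250 bases upstream of an annotated start, 5′ to 3′ on the gene's strand; for GPC6 that start lies inside the gene's span in the RefSeq table. Capitals mark the GC box (GGGCGG), the CCAAT box (CCAAT) and the TATA box (TATAAA) on either strand, and overlapping matches run together.
GPC6, chr13:93226557-93226806, plus strand: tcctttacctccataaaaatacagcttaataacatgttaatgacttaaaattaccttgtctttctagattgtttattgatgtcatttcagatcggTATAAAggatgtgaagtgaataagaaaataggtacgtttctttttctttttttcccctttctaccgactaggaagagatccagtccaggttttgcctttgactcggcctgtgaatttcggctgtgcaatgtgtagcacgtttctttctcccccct
GPC1, chr2:240435413-240435662, plus strand: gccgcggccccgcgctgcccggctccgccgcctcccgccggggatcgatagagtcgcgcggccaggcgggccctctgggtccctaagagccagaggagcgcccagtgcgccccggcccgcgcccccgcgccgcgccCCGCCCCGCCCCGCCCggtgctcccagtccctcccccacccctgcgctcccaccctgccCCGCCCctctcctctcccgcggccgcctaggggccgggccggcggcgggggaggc

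The GPC6 window is 37.6% G and C with 1 TATA box match and 0 GC boxes, and the GPC1 window is 84.0% G and C with 4 GC box matches and 0 TATA boxes. Over 35116 promoter windows of the same length in the table, the median was 58.0% G and C, 42.6% held a GC box, 32.0% a CCAAT box and 10.7% the TATA letters. A match of letters is a description of the window and does not show a site in use.

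With dexrazoxane, transcripts of 3 of the genes were called lower and 1 higher. They encode a hyaluronan synthase, a heparan sulfate polymerase and glypicans. HAS2, EXT1 and GPC6 were 1.81-fold, 1.65-fold and 1.66-fold lower than with vehicle. GPC1 was 1.29-fold higher, with groups that overlapped. EXT2, the partner of EXT1 in the polymerase, differed by 0.001 on the log2 scale. These calls come from a limma fit across 14731 genes in which the replicate number of the labels is a block, at a Benjamini-Hochberg adjusted p under 0.05; of all genes tested, 2.42% were called higher and 2.44% lower. The labels do not say that same-numbered arrays belong together. The planned fit had no block, and the numbers were taken as pairs after a correlation in these same data. Without the block limma called 0 genes in either direction (0.00%), with 765 of all genes and 3 of the 9 tested members at an unadjusted p under 0.05. Dexrazoxane arrays lay wholly below vehicle arrays for 4 of the 9 genes and wholly above for 0, where the shares over all genes were 3.62% and 6.53%. The members' median difference was -0.07, beside 0.02 over all genes tested.

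**Figure D1:**
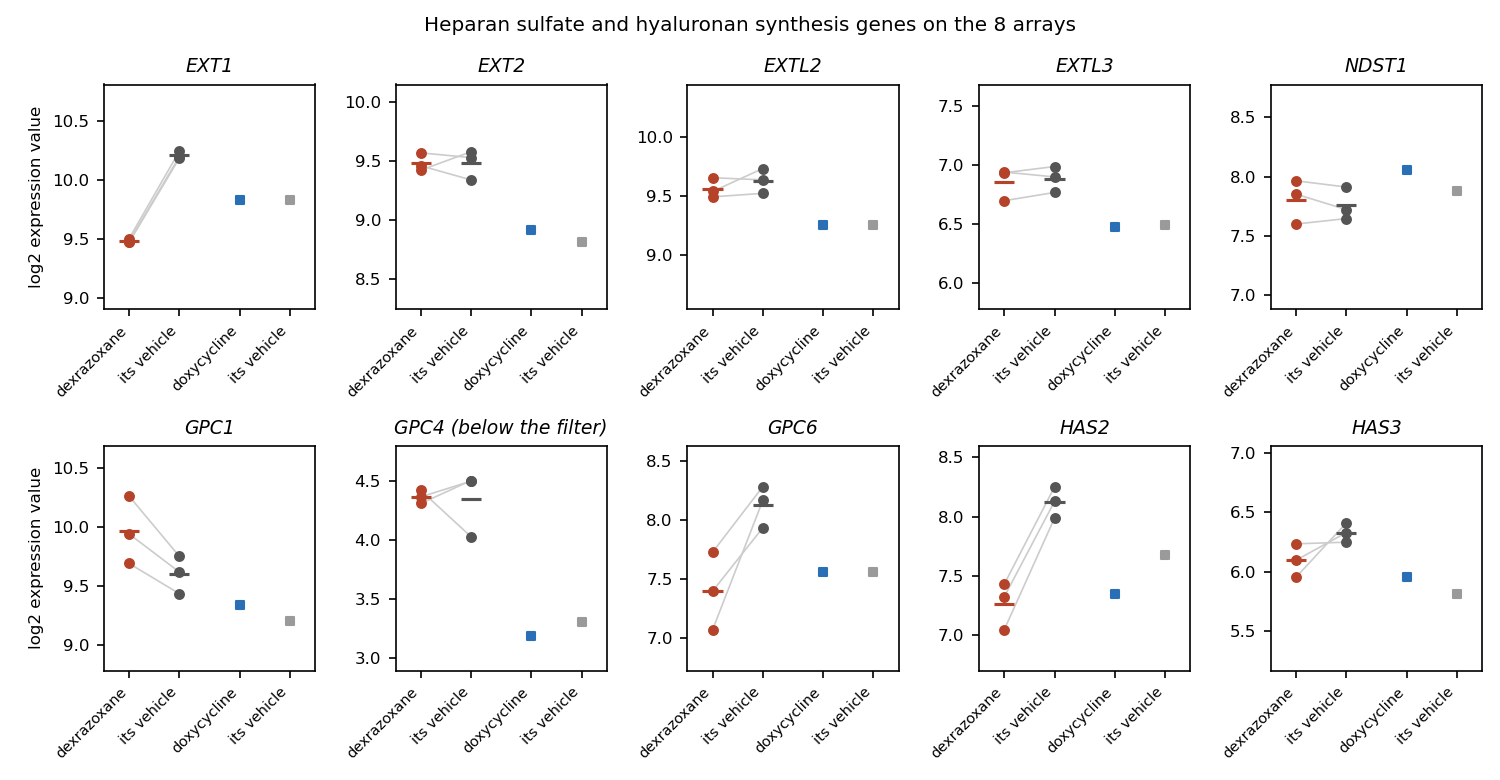
Log2 expression values (vertical axes, all of the same height in log2 units) of the probe set that stands for each of the 10 genes. Circles are the 3 dexrazoxane and 3 dexrazoxane vehicle arrays, with lines joining arrays of the same number and short bars at the group means; squares are the single doxycycline array and its vehicle array. EXT1, GPC6, HAS2 and HAS3 lie lower on all 3 dexrazoxane arrays than on any dexrazoxane vehicle array, HAS3 by only 0.01 at the nearest arrays.

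EXT1 encodes one of the glycosyltransferases that lengthen the heparan sulfate chain, and its loss in humans causes multiple osteochondromas. Its main probe set (201995_at) read 9.48, 9.47 and 9.50 on the dexrazoxane arrays, against 10.20, 10.18 and 10.24 on the vehicle arrays. The groups did not overlap, and values within a group differed by less than 0.1. The difference was -0.72 ± 0.07 (SE of the paired limma fit, adjusted p = 0.0049; 0.252 without the block), and the 3 pairs gave -0.72, -0.71 and -0.74. 

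The other EXT1 probe sets gave the same direction. The set 230183_at read 6.52, 6.05 and 6.06 with dexrazoxane and 7.33, 7.01 and 6.90 with vehicle, a difference of -0.87 ± 0.08. The dim set 214985_at, whose mean over the arrays was below the filter, read 3.69, 3.83 and 3.52 with dexrazoxane and 4.51, 4.57 and 4.11 with vehicle, a difference of -0.72 ± 0.09. In the paired limma fit over all 41097 probe sets with 1 symbol, the adjusted p was 0.0251, 0.0231 and 0.0329 for the 3 sets. They were measured on the same RNA and are not replicates of each other.

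EXT2 supplies the other subunit of that polymerase. It read 9.46, 9.42 and 9.57 with dexrazoxane and 9.34, 9.58 and 9.53 with vehicle, and the groups overlapped (0.001 ± 0.08, limma paired adjusted p = 0.996). A second probe set (202013_s_at) differed by 0.003 ± 0.10. Set against EXT2 on the same array, EXT1 stood at 0.02, 0.05 and -0.06 with dexrazoxane and at 0.86, 0.61 and 0.72 with vehicle. That ratio differed by -0.73. It and the ratios of GPC6 to GPC1 and of HAS2 to HAS3 given further on were chosen after the values were seen, so they are descriptions. An exact permutation over 20 regroupings of the arrays gave p = 0.1 for each, and no conclusion is drawn from it.

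The genes for starting and first modifying the chain were not called. EXTL3, which adds the first N-acetylglucosamine of heparan sulfate, read 6.94, 6.93 and 6.70 with dexrazoxane and 6.90, 6.99 and 6.77 with vehicle, and its difference was -0.03 ± 0.07 (limma paired adjusted p = 0.868). Its second probe set (211051_s_at) differed in sign, at 0.17 ± 0.08. EXTL2, a transferase that can stop chain growth on a phosphorylated linker, differed by -0.07 ± 0.08. NDST1, which swaps acetyl for sulfate groups on the new chain, had differences of 0.03 to 0.09 over 3 probe sets, and 0.05 ± 0.08 for the main one (limma paired adjusted p = 0.771). In each of these genes the dexrazoxane and vehicle arrays overlapped.

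**Figure D2:**
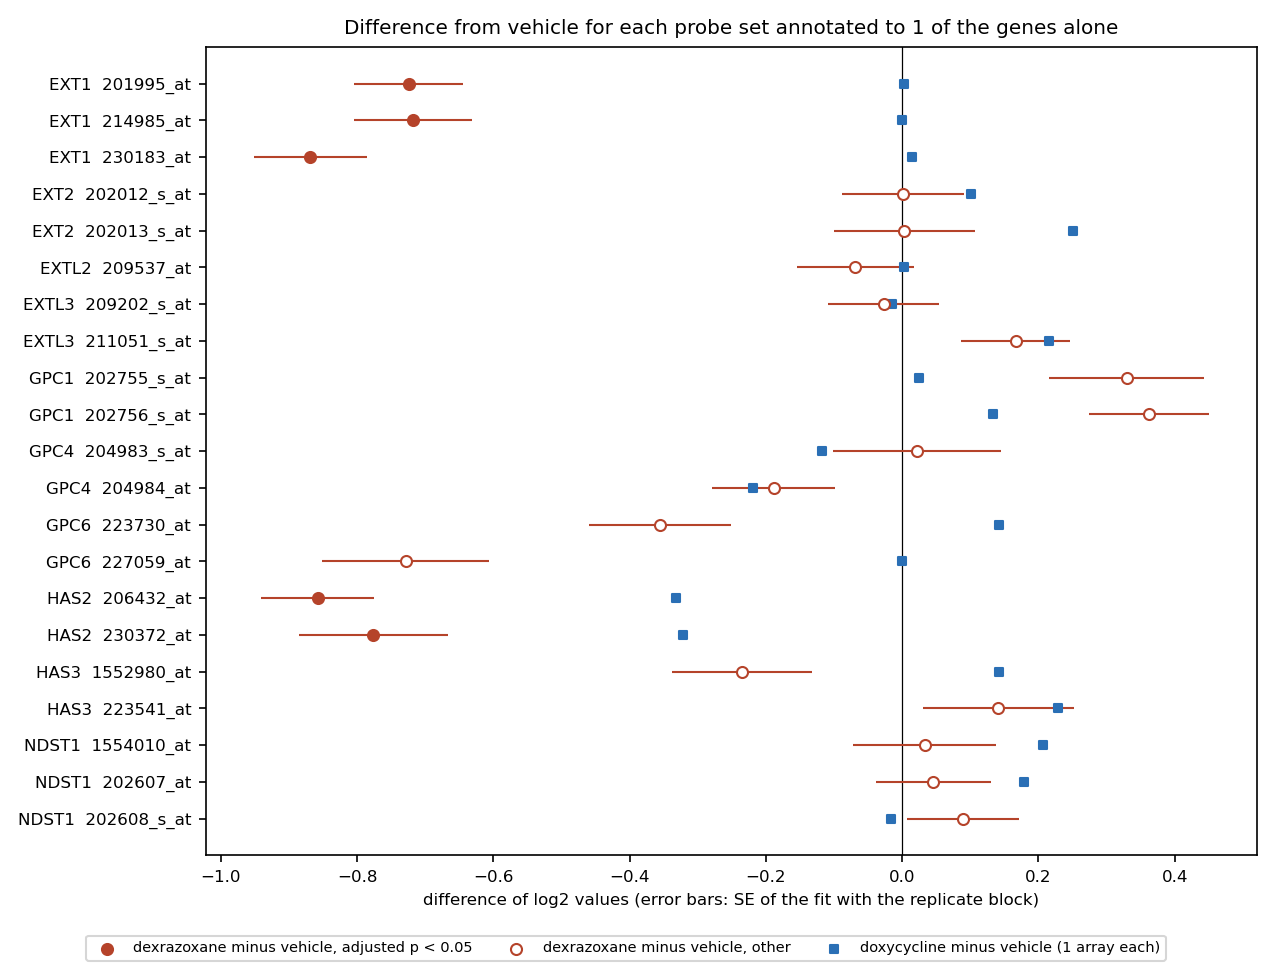
Difference of log2 values from vehicle (horizontal axis) for the 21 probe sets annotated to 1 of the genes alone. Circles are dexrazoxane minus vehicle with the SE of the paired limma fit over 41097 probe sets, filled where its adjusted p was under 0.05; squares are doxycycline minus vehicle, 1 array each. All 3 EXT1 and both HAS2 sets are filled, and doxycycline squares of HAS2 are also below 0.

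Over the 21 probe sets, 5 were called lower and 0 higher in that fit, where 0.204% of all probe sets were called lower and 0.168% higher. The 5 are those of EXT1 and HAS2. Dexrazoxane arrays lay wholly below vehicle arrays for 7 of the 21 and wholly above for 0, where the shares over all probe sets were 4.05% and 4.89%.

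Glypicans carry heparan sulfate chains on a lipid anchor. GPC6, a glypican of developing bone that promotes hedgehog signalling, read 7.40, 7.07 and 7.73 with dexrazoxane, against 7.93, 8.16 and 8.28 with vehicle (227059_at). Every dexrazoxane array was below every vehicle array. The difference was -0.73 ± 0.12 (limma paired adjusted p = 0.0183; 0.782 without the block), and by pair it was -0.54, -1.10 and -0.55. The second probe set (223730_at) read 5.55, 5.78 and 5.66 with dexrazoxane and 5.67, 6.14 and 6.25 with vehicle; there the groups overlapped and the difference was -0.36 ± 0.10. Without pair 1 the GPC6 difference was -0.82 and its limma adjusted p 0.0512.

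GPC1, a glypican raised in several carcinomas, went the other way. Its main probe set (202756_s_at) read 9.94, 10.26 and 9.69 with dexrazoxane and 9.62, 9.75 and 9.44 with vehicle, so the groups overlapped while each pair was higher, by 0.32, 0.51 and 0.26. The difference was 0.36 ± 0.08 (limma paired adjusted p = 0.0453; 0.992 without the block). This call was lost when any 1 pair was left out, with limma adjusted p of 0.135, 0.0826 and 0.0679 without pairs 1, 2 and 3. The other set (202755_s_at) differed by 0.33 ± 0.11, with 0.01, 0.43 and 0.55 by pair.

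GPC4, which is expressed in stem cells and adipose tissue, was at or near the floor of these arrays. Both of its probe sets were below the filter, at 4.42, 4.36 and 4.31 with dexrazoxane and 4.03, 4.50 and 4.50 with vehicle for the brighter one (204983_s_at), so the gene was not tested. The log2 ratio of GPC6 to GPC1 within an array was -2.55, -3.19 and -1.97 with dexrazoxane and -1.69, -1.59 and -1.16 with vehicle, a difference of -1.09.

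HAS2 encodes the hyaluronan synthase that predominates in fibroblasts. It read 7.32, 7.04 and 7.43 with dexrazoxane, against 8.13, 7.99 and 8.25 with vehicle (206432_at), and the groups did not overlap. The difference was -0.86 ± 0.07 (limma paired adjusted p = 0.0043; 0.321 without the block), with pairs at -0.81, -0.94 and -0.82. The second HAS2 set (230372_at) read 6.33, 5.70 and 6.15 with dexrazoxane and 7.07, 6.75 and 6.69 with vehicle, a difference of -0.78 ± 0.11 with no overlap.

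HAS3, a synthase usually credited with shorter chains, had probe sets that disagreed. The main set (1552980_at) read 6.10, 5.95 and 6.23 with dexrazoxane and 6.33, 6.41 and 6.25 with vehicle. Those groups did not overlap, but the nearest arrays were 0.01 apart in pair 3, and the difference of -0.24 ± 0.10 was not called (limma paired adjusted p = 0.197). The other set (223541_at) differed by 0.14 ± 0.11. The probe set shared with UTP4 differed by 0.01. The HAS2 to HAS3 ratio within an array was 1.23, 1.09 and 1.19 with dexrazoxane and 1.80, 1.58 and 2.00 with vehicle, a difference of -0.62.

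The 10 genes differ in how much of the genome they span. GPC6 spans 1191 kb and EXT1 317 kb in the RefSeq table (GRCh38.p14), EXT2, EXTL3 and GPC4 156, 149 and 115 kb, NDST1 60.4 kb, and HAS3, GPC1, HAS2 and EXTL2 22.8 to 35.2 kb. Both genes over 200 kb fell, as did HAS2 at 29.3 kb. In the paired limma fit 7.40% of all tested genes over 200 kb were called lower, against 2.82% of those from 100 to 200 kb and 1.97% of shorter ones. Whether span has a part in these falls was not tested.

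Other genes of the pathway were taken from 8 lists by role, with 94 genes of which 71 were tested. In the paired limma fit 3 rose and 5 fell, beside 2.42% and 2.44% of all genes, and 0 of either without the block, where 9 had an unadjusted p under 0.05. The median was -0.01, beside 0.02 for all genes tested. When every probe set was tested on its own, the probe sets that stand for the 8 genes lost their calls, their differences being the same values. Another set of CHST11 and another of HMMR were called lower (limma paired adjusted p = 0.0295 and 0.0475).

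Calls among heparan sulfate core proteins went in both directions. Of the 11 tested beyond the glypicans above, 2 rose and 2 fell in the paired limma fit, with a median of 0.03. Of all genes 2.42% were called higher and 2.44% lower, and without the block 0 of the 11 were called. SDC2, which encodes the transmembrane syndecan of fibroblasts, read 8.28, 7.47 and 7.51 with dexrazoxane and 8.71, 8.18 and 8.08 with vehicle (-0.57 ± 0.08, limma paired adjusted p = 0.0144). NRP1, a VEGF and semaphorin co-receptor that can carry a chain, fell by 0.43 ± 0.09 on the log2 scale. The basement membrane proteoglycan genes HSPG2 (perlecan) and AGRN (agrin) rose by 0.49 ± 0.10 and 0.46 ± 0.10. The SDC2 call was kept with any pair left out. NRP1 and HSPG2 lost theirs without pair 1 (limma adjusted p = 0.142 and 0.0523) and without pair 3 (0.0540 and 0.115), and AGRN without pairs 1, 2 and 3 (0.0680, 0.0555 and 0.0540). Other probe sets differed less, by 0.08 to 0.34 over 3 sets of AGRN, by 0.17 for the second set of HSPG2 and by -0.20 to 0.18 over 3 sets of NRP1. Those of SDC2 differed by -0.42 and -0.37 and were not called (limma paired adjusted p over all probe sets = 0.108 and 0.190). In the main sets of SDC2, NRP1, HSPG2 and AGRN the dexrazoxane and vehicle arrays overlapped.

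Among 8 tested sulfotransferase and epimerase genes, 1 fell and 0 rose, beside 2.44% and 2.42% of all genes, and the median was -0.14. HS3ST3A1, which adds the rare 3-O-sulfate, read 9.97, 9.75 and 10.56 with dexrazoxane and 10.43, 10.63 and 11.01 with vehicle, a difference of -0.60 ± 0.10 (limma paired adjusted p = 0.0201; 0.0638 without pair 1). Those groups overlapped. None of 7 linker genes, 12 donor genes and 2 removal genes was called in either limma fit. The 2 with the smallest p in each were XYLT1 and B3GALT6 (-0.26 and 0.13), which attach the first and a later linker sugar, UXS1 and SLC35D2 (-0.25 and 0.27), which make and carry nucleotide sugars, and HPSE and SULF1 (0.30 and -0.07), which encode heparanase and a 6-O-sulfatase. EXTL1, the remaining EXT relative, was below the filter.

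On the hyaluronan side 1 of 15 tested genes rose and 1 fell, beside 2.42% and 2.44% of all genes, with a median of 0.03. HMMR, which binds hyaluronan and also the mitotic spindle, fell by 0.60 ± 0.09, at 10.69, 10.13 and 10.01 with dexrazoxane and 11.05, 10.84 and 10.73 with vehicle. The hyaluronidase family gene HYAL3 rose by 0.48 ± 0.11 (limma paired adjusted p = 0.0496; 0.159 without pair 1 and 0.0763 without pair 2). Of 16 chondroitin and dermatan sulfate genes CHST11, a chondroitin 4-O-sulfotransferase gene, fell by 0.49 ± 0.07, at 8.76, 8.51 and 8.75 with dexrazoxane and 9.20, 9.01 and 9.30 with vehicle; its limma paired adjusted p was 0.0153, and 0.0636 without pair 1. The other 15 were not called.

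**Figure D3:**
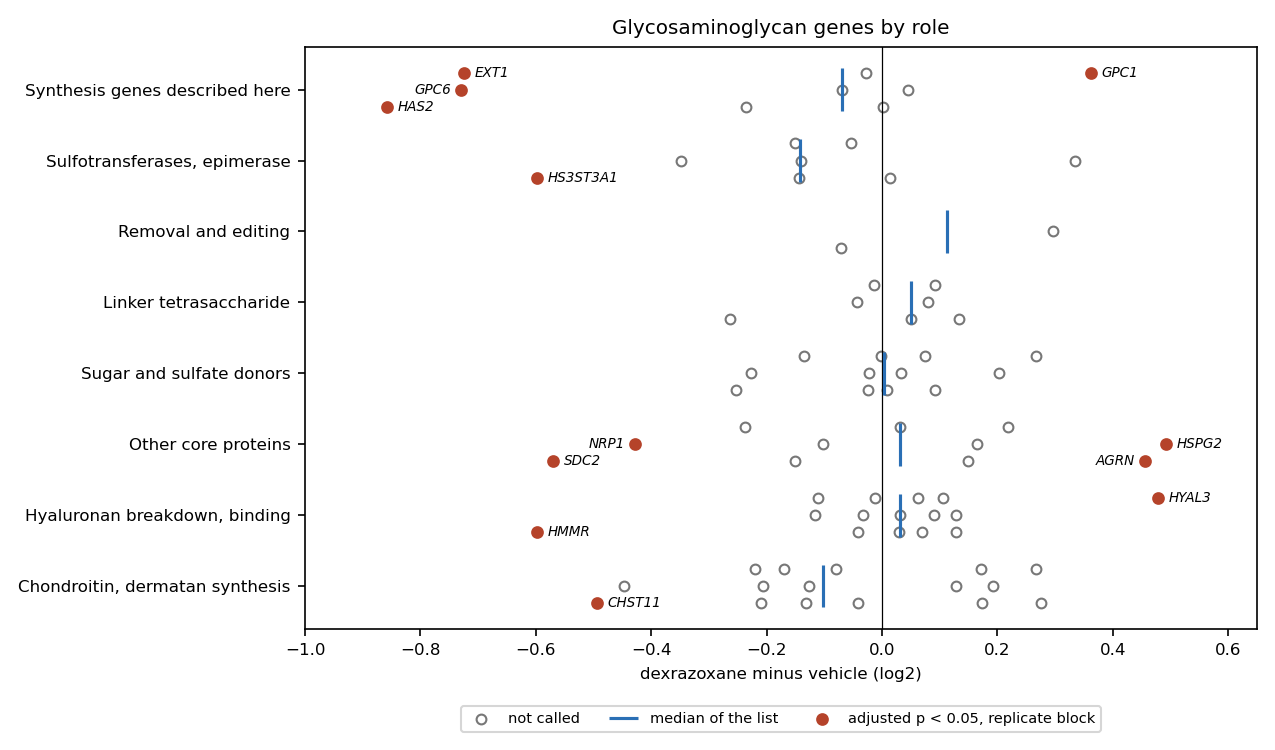
Dexrazoxane minus vehicle (log2, horizontal axis) for the 9 tested synthesis genes and 71 other glycosaminoglycan genes, in rows by role. Filled and named circles had an adjusted p under 0.05 in the paired limma fit; blue bars are list medians, which lie between -0.14 and 0.11.

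The profile of HAS2 over the 6 arrays was most like those of TENM2 (a teneurin, Pearson r = 0.996), WDR89 (0.987), CARHSP1 (0.986), MTDH (0.985) and CHST11 (0.983). Of 14730 other genes 44 reached 0.95. These arrays share 2 treatment groups and their replicate numbers, so such values are a description.

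The doxycycline pair gave a different set of values, with 1 array a group and so no error. HAS2 was lower, at 7.34 on the doxycycline array and 7.67 on its vehicle array (-0.33), and the second HAS2 probe set agreed in sign, at 6.03 and 6.35 (-0.32). It was the 1 member of the 9 tested past 1.2-fold, where 3.43% of all genes were past it on the lower side and 2.50% on the higher side. At 1.5-fold the members' count was 0, beside 0.102% of all genes lower and 0.0272% higher. HAS3 read 5.96 with doxycycline and 5.81 with vehicle (0.14).

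EXT1 read 9.83 on both arrays of that pair, with differences of 0.003, 0.02 and 0 over its 3 probe sets. GPC6 had the same value on both arrays (7.56), as did 9.62% of all probe sets in that pair, and its second set differed by 0.14. NDST1 was at 8.06 with doxycycline and 7.88 with vehicle (0.18), GPC1 at 9.34 and 9.21 in the same order (0.13) and EXT2 at 8.91 and 8.81 (0.10). EXTL2 and EXTL3 differed by 0.002 and -0.02, and GPC4, below the filter, by -0.12. The median of the 9 tested members was 0.003, beside 0.02 for all genes. Differences between the doxycycline and dexrazoxane responses were not tested.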

How the data were processed

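Biotinylated cRNA from HTETOP cells was hybridised to 8 Affymetrix human arrays. The deposited values are log2 expression values per probe set made by the authors with RMA, per the submitters' processing notes; which arrays were normalized together is not stated there. RMA makes array distributions alike, so a general shift would be removed. The number of arrays limits the precision.

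Gene names came from the platform annotation, in which 41097 probe sets carried 1 symbol, 1801 several and 11777 none. Of those with 1 symbol, 41043 were updated through a RefSeq table (GRCh38.p14). Each of 19775 genes was represented by its brightest probe set on average, and 14731 passed a filter at the 40th percentile (4.83). limma 3.58.1 in R 4.3.3 (lmFit, eBayes, two-sided, Benjamini-Hochberg) compared 3 dexrazoxane with 3 vehicle arrays. The planned fit had no block. Deviations from group means correlated at 0.823, 0.574 and 0.716 between same-numbered arrays, so the numbers were taken as pairs and a second fit held them as a block; that pairing rests on the same data. Printed standard errors are from this paired fit for the probe set that stands for a gene. Every probe set was also tested, without a filter, over 41097. Standard errors of a gene's other probe sets are from the paired fit over those.

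Members and lists were chosen with earlier results of these data known. Named were all 10 members, TOP2A, in each list the members called or else the 2 with the smallest p in the paired fit, and the 5 genes most correlated with HAS2. The doxycycline pair had no test.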

Additional observations from a re-analysis of the deposited data

How the results depend on the processing

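Without the block, 0 members were called higher or lower under every alternative run, including each array left out in turn. The replicate block gave 1 higher and 3 lower, beside 2.42% and 2.44% of all genes. The members' median ran from -0.122 to -0.0176 when 1 array was left out. EXT1 and HAS2 kept their calls under all 11 alternatives to the paired fit, GPC6 under 9 and GPC1 under 5. Those alternatives, other than leaving out a pair, were chosen after seeing the data. Directions of these 4 genes were kept in all. Changes of the filter or the variance model, every probe set and plain probe sets left their differences as they were, so the direction was fixed there. With the replicate block, 0 members were higher with no filter, with every probe set and with plain probe sets preferred (limma adjusted p for GPC1 of 0.0695, 0.123 and 0.0537). Every probe set gave 5 lower, counted as probe sets, where 0.204% of all probe sets were lower and 0.168% higher. Leaving out a pair gave 0 higher and 2 to 3 lower, and the shares of all genes in those fits are not given here. Fewer arrays or more tests change the adjustment; the cause of other shifts was not tested.

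Values near 0 changed sign. EXTL3 was 0.0699 with the mean of probe sets in both fits, and EXT2 was -0.0019 with median centring in both. With 1 array left out EXTL3 ran from -0.0856 to 0.0526, EXT2 from -0.0700 to 0.0492 and NDST1 from -0.0339 to 0.149, and EXT2 was -0.0578, 0.0797 and -0.0183 without pairs 1, 2 and 3 in the paired fit. Calls among the 71 other genes ran from 0 to 7 higher and 0 to 9 lower under alternatives to the paired fit. The 0 lower came with every probe set, where only the set that stands for each gene was counted. Another set of CHST11 and another of HMMR were called lower there. The 7 and 9 came with trended and robust variance. The share of all genes called in that fit is not given here, so these counts cannot be set against it.

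With doxycycline, 0 members passed 1.5-fold, beside 0.102% of all genes lower and 0.0272% higher. The median was 0.0788 with the mean of probe sets. When each probe set was taken on its own, the 2 past 1.2-fold were those of HAS2 alone (-0.33 and -0.32). The share of all probe sets past it is not given here.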
